A study of Mus musculus with 249 samples.

Results

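Alad, Nnt, Tlr4 and Pde6b are genes in which the parental strains C57BL/6J and C3H/HeJ, or inbred mouse strains more widely, are known to carry variants. Every probe whose only gene symbol was one of these names was taken, which gave 4 probes of the 23388 on the array, 1 per gene. They were followed over 248 F2 mouse brains. The animals came from an F2 intercross of the 2 strains, all on an ApoE null background, were of both sexes and ate a Western diet rich in fat from 8 to 24 weeks of age. Sex and genotype are not given for each animal, so the animals form 1 group and no allele can be assigned to any of them. Each animal's RNA (Cy3) was hybridised on 1 array against a pool that held RNA of all the animals (Cy5), and each value is the log10 of animal over pool, on which 0.301 is a factor of 2. Arrays of 249 animals were present, of 330 that the labels count in the cross.

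The 4 genes have different tasks. Alad encodes delta-aminolevulinate dehydratase, an enzyme of haem synthesis, and its copy number differs between inbred mouse strains; which number each parental strain carries is not given in the sources used here. Nnt encodes the nicotinamide nucleotide transhydrogenase of the inner mitochondrial membrane, which makes NADPH from the proton gradient, and C57BL/6J carries a deletion of several of its exons. Tlr4 is the receptor for bacterial endotoxin on microglia and other myeloid cells, and C3H/HeJ carries a missense change, proline to histidine, in its intracellular signalling domain, from which no change of transcript level follows. Pde6b encodes the beta subunit of the cyclic GMP phosphodiesterase of rod photoreceptors, and C3H/HeJ carries the retinal degeneration allele rd1, a nonsense change with a proviral insertion. In an F2 intercross a locus with an additive effect on its own transcript gives low, middle and high animals in shares of 25%, 50% and 25%.

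Promoter sequences from RefSeq (GRCm38.p6, 250 bases before to 50 after a transcription start) were matched for 2 of the 4 genes, Alad and Pde6b. They are shown with that of Paip1, the gene next to Nnt, which varied with it. Capitals mark the GC box (GGGCGG), the CCAAT box and, for Pde6b only, TAATC, the core bound by photoreceptor homeobox factors such as Crx, each searched on both strands with overlapping matches counted.
Alad, chr4:62519860-62520159, minus strand: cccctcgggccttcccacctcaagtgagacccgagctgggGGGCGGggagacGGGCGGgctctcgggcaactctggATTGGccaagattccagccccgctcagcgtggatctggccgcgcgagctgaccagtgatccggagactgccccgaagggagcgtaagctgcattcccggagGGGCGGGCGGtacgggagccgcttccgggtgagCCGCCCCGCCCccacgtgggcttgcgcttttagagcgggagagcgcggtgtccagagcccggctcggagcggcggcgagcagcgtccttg
Paip1, chr13:119428350-119428649, plus strand: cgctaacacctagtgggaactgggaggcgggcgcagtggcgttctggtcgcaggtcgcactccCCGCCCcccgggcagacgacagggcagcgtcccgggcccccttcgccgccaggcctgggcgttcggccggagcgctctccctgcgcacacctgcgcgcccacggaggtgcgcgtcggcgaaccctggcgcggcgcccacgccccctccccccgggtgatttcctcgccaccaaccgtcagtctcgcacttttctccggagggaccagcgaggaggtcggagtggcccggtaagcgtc
Pde6b, chr5:108388123-108388422, plus strand: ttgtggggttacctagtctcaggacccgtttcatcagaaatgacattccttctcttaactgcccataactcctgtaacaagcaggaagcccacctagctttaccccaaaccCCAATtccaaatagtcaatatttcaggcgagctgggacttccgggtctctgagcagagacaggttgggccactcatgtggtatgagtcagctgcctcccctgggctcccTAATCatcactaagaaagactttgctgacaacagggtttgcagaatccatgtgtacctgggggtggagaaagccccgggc
This Alad window held 6 GC boxes and 1 CCAAT box at a GC content of 71.3%, the Paip1 window 1 GC box at 73.3%, and the Pde6b window no GC box, 1 CCAAT box and 1 TAATC at 51.3%. Of 32851 promoters of the same length, 35.7% held a GC box, 37.4% a CCAAT box and 22.0% TAATC, and the median GC content was 52.7%. A further start is listed for Alad and for Paip1. The window of the other Alad start held 2 GC boxes and 2 CCAAT boxes at 60% GC. That of the other Paip1 start held 4 GC boxes at 81%, so the counts differ with the start chosen. The matches describe these windows only.

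A few arrays stood apart and touch the results. Taken over its probes, an array's SD ran from 0.0585 to 0.258 on the 248 arrays, with 0.0764 as the median. The array of animal 144, left out throughout, had 0.392. The arrays of animals 178, 213 and 336 had the largest, the next largest and the third largest SD of those used, and each holds an extreme value of a member. Results are therefore also given without the 12 arrays of largest spread. The values are ratios to a pool of the same animals, so they do not show how strongly a gene is expressed in brain, and the brain label could not be checked against levels of marker genes. In bulk tissue, fewer cells of a type and less RNA per cell cannot be told apart.

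**Figure D1:**
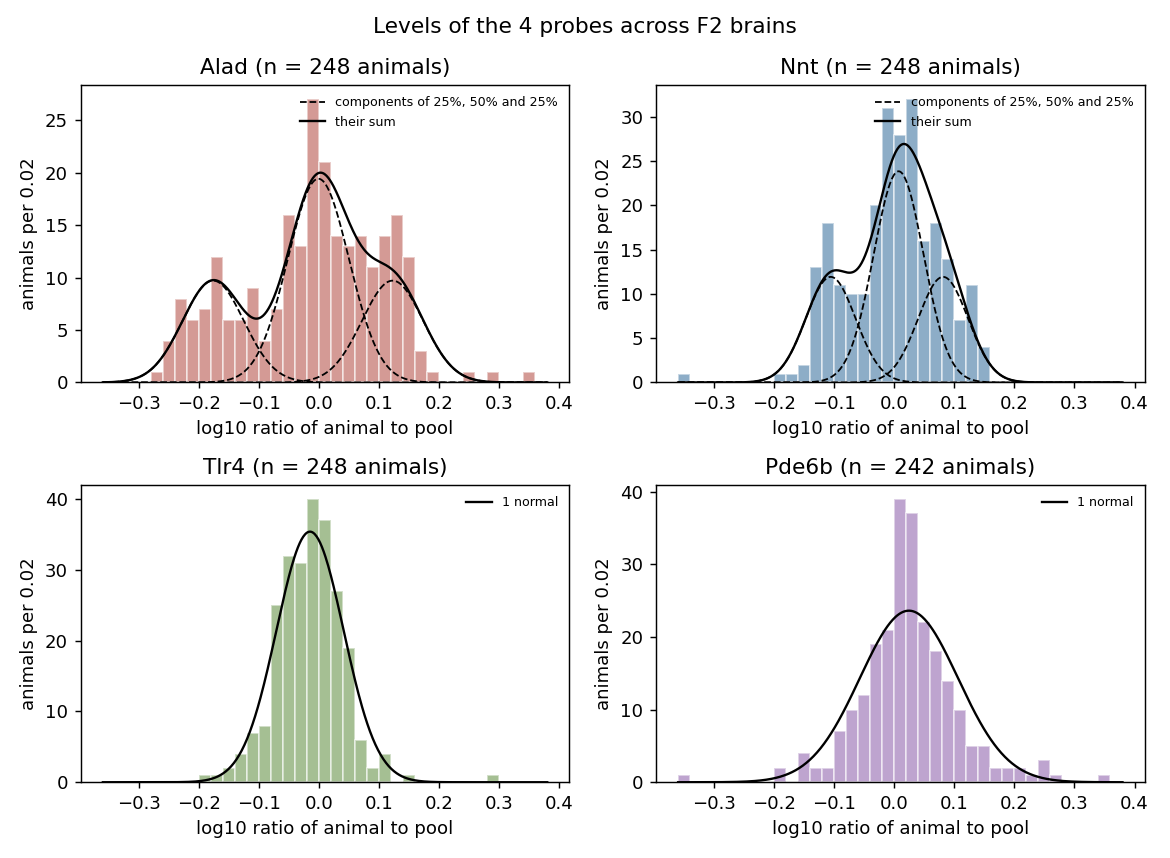
Histograms of the log10 ratio of animal to pool for the 4 probes (bins of 0.02, 1 value per animal; the y axis counts animals). Alad and Nnt are drawn with the 3 fitted components of 25%, 50% and 25% (dashed) and their sum (solid), Tlr4 and Pde6b with 1 normal curve; Alad spreads over 3 levels from -0.271 to 0.351, while most Tlr4 values lie close to the pool.

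Alad varied most of the 4 probes, and a mixture of 3 levels described it best. Its log10 ratio was -0.271 in the lowest animal, -0.00177 at the median and 0.351 in the highest (SD 0.117, n = 248), and its SD lay at percentile 94.9 of all probes, whose median SD was 0.0560. Animals lay at values between the levels too, so that the levels overlap in the histogram. Normal mixtures with 1 common variance were compared by BIC, and a probe was called divided where the best mixture beat 1 normal by more than 10 and the outer means stood 2 or more within-component SD from each other. For Alad the best of these was 3 components of 25%, 50% and 25%, with a gain of 15.6. From low to high their means were -0.176, -0.00108 and 0.122, with a within-component SD of 0.0510, so the outer means lay 5.86 within-component SD apart.

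On the linear scale the upper Alad component was 1.99-fold above the lower one, the middle one 1.497-fold above the lower, and the upper one 1.33-fold above the middle. The middle mean lay 50.2% of the way from the lower to the upper, as a linear ratio. Gene doses of 2, 3 and 4 would give 2-fold, 1.5-fold and 1.33-fold. The doses that these animals carry are not known, and the part of copy number in the level of Alad was not tested. By their most probable component 59 animals were low, 126 middle and 63 high, that is 23.8% (exact Clopper-Pearson 95% interval 18.6% to 29.6%), 50.8% (44.4% to 57.2%) and 25.4% (20.1% to 31.3%). These shares follow in part from the weights that the mixture was given, and 85 animals had a probability under 0.9 for their component. In the 7 alternatives that called Alad divided, 3 components were best and the fold of upper over lower was 1.93 to 1.99. In animals of lower number alone the probe was not called, and the best mixture, 25% low and 75% high, had a fold of 1.62. The gain was 42.2 without the 12 arrays of largest spread and 152.2 after 5 principal components of expression were removed.

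Nnt varied less, and whether it was called divided changed with the setting. Its log10 ratio was -0.342 in the lowest animal, 0.00451 at the median and 0.149 in the highest (SD 0.0777, n = 248; percentile 77.8). The lowest value belongs to animal 178, far below the next lowest, -0.194. With all 248 arrays the probe was not called divided: the best mixture, 25% low and 75% high, gained 0.624 over 1 normal. Without animal 178, an alternative chosen after seeing the data, 3 components of 25%, 50% and 25% were best, with a gain of 21.7. Their means were then -0.104, 0.00663 and 0.0927 from low to high, 1.57-fold from lower to upper. Without the 12 arrays of largest spread the gain was 22.1 and the fold 1.58, and after 5 principal components, with animal 178 kept, they were 52.5 and 1.59. In animals of higher number alone, which do not include animal 178, 3 components were best but gained 3.67, and the probe was not called. Where in the Nnt transcript the probe lies is not given in the sources used here, so it was not tested whether it covers the deleted exons.

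Tlr4 was close to the pool in most brains. Its log10 ratio was -0.182 in the lowest animal, -0.0133 at the median and 0.299 in the highest (SD 0.0559, n = 248; percentile 49.8), and 166 animals lay within 0.05 of the pool. The highest value was that of animal 213, and the next highest was 0.146. The probe was not called divided: the best mixture gained 9.91, just under the threshold of 10, through a component that held 0.407% of the weight. A mixture of 25%, 50% and 25% had a gain of -10.8, so 1 normal was better.

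Pde6b was measured in 242 animals and was missing in 6. Its log10 ratio was -0.349 in the lowest animal, again number 213, 0.0229 at the median and 0.358 in the highest (SD 0.0818; percentile 81.2). The best mixture put 3.83% of the weight in an upper component and gained 4.42, so the probe was not called divided, and a mixture of 25%, 50% and 25% had a gain of -10.8. Animals spread on both sides of the pool without visible groups.

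Thus 1 of the 4 probes was divided by any mixture, where 63.1% of 11989 placed autosomal probes were, and 1 of 4 had 3 components of 25%, 50% and 25% as the best and passing mixture, where 0.968% were. Taken alone, that mixture gained more than 10 over 1 normal in 1 of 4, where it did in 6.21% of probes. The first of these shares rests mostly on small components: of the 7564 probes divided, 6416 had free weights best and a smaller component under 5%, with a median of 1.21% over those with free weights best.

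The fit that follows asked which other transcripts varied with each member across animals. In limma, each of 23052 probes was regressed on the member's log10 ratio, and a slope is the change in log10 ratio per unit of log10 ratio of the member, with its SE. The main fit used all 248 arrays. A second fit, chosen after seeing the data, had the first 5 principal components of the probes off the member's chromosome as covariates and left out the 12 arrays of largest spread; it is called the component-adjusted fit. Such components were also computed on all 248 arrays. There they held 58.4% of the variance of Tlr4, 14.2% of that of Alad, 13.3% of that of Pde6b and 8.79% of that of Nnt. Those for Alad held 40.0% of the variance of all probes off its chromosome. The shares without the 12 arrays are not given.

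At a Benjamini-Hochberg adjusted p under 0.05, 36.4% of probes were called with Alad, 13% with Nnt, 59.6% with Tlr4 and 33.5% with Pde6b in the main fit. With component adjustment these shares were 2.33%, 0.737%, 12.1% and 1.32%. The calls were then placed by gene order on the assembly. On the Alad chromosome 19.7% of placed probes were called in the component-adjusted fit, against 1.32% on other chromosomes. For Nnt the shares were 7.79% on its chromosome against 0.443% on others, and for Pde6b 8.93% against 0.695%. Tlr4 had the other order, with 9.71% on its own chromosome against 12.4% on others. In the main fit the shares were 43.5% against 36.3% for Alad, 20.4% against 13.3% for Nnt, 59.0% against 61.2% for Tlr4 and 34.7% against 34.1% for Pde6b. Neighbouring genes are inherited together in an F2 cross and are not independent, so these shares are given as a description.

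**Figure D2:**
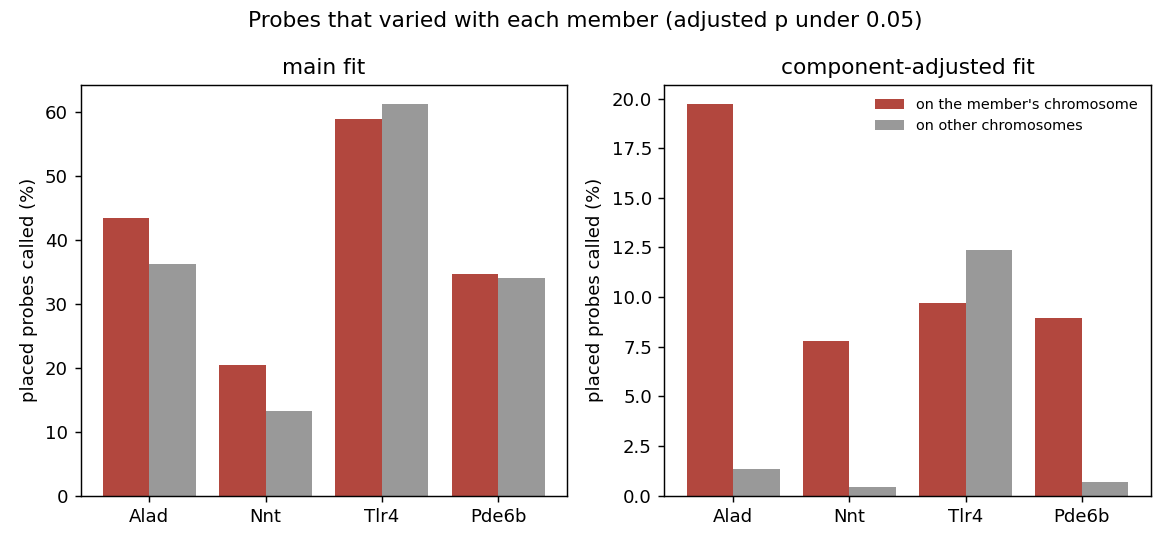
Percent of placed probes called at an adjusted p under 0.05 (y axis, starting at 0) with each of the 4 genes, on the gene's own chromosome (red) and on the other chromosomes (grey), in the main fit (left) and in the component-adjusted fit (right; the scales differ). At right the own chromosome exceeds the others for Alad (19.7% against 1.32%), Nnt (7.79% against 0.443%) and Pde6b (8.93% against 0.695%), but not for Tlr4 (9.71% against 12.4%).

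The transcripts that followed Alad lay widely spread over chromosome 4. Of the 20 named and placed probes with the smallest p, 14 lay on it in the main fit and 18 in the component-adjusted fit. Cyp2j13, a cytochrome P450 gene 55 places beyond Alad among the measured genes, rose with it with a slope of 0.857 ± 0.0551 (SE, limma adjusted p = 9.5e-35). Ccl21a, a chemokine that guides lymphocytes, lay 86 places before Alad and fell with a slope of -1.33 ± 0.0957. Trmt10b, a tRNA methyltransferase gene 50 places before, fell at -0.302 ± 0.0229, and 1 of 4 probes of Ybx1, which encodes an RNA and DNA binding protein 165 places beyond, rose at 0.509 ± 0.0397. The other Ybx1 probes had slopes of 0.197 ± 0.0258, -0.0566 ± 0.0270 and -0.236 ± 0.0369, so its probes disagree in direction. The other 2 probes of Ccl21a fell as well (-0.935 ± 0.0795 and -0.0597 ± 0.0238), and since near-identical copies of this chemokine gene are annotated on chromosome 4, its probes may not be tied to 1 of them. A probe named Bat2 on the array, whose gene ID matched no mouse gene in the reference table, had the smallest p, with a slope of 0.303 ± 0.0158. Pearson r was also taken within low, middle and high Alad animals, where Alad spans a narrower range. For Cyp2j13 it was -0.0730, 0.246 and 0.0685, beside 0.702 over all animals. For Ccl21a it was -0.111, -0.167 and -0.000935, beside -0.661, and for Trmt10b -0.309, -0.178 and -0.574, beside -0.644. Bat2 had -0.192, 0.339 and -0.113, beside 0.778, and the first Ybx1 probe 0.370, 0.135 and 0.0414, beside 0.632. The component-adjusted fit called all 5 in the same direction. It also put Ccl27a, a chemokine gene 88 places before (-1.10 ± 0.0700), and Prkaa2, a catalytic subunit of the AMP-activated kinase 79 places beyond (-1.59 ± 0.113), among the 5 of smallest p.

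The nearest genes differed in how they varied with Alad. Zfp618, a zinc finger gene 3 places beyond, rose in both fits (0.262 ± 0.0342 and 0.152 ± 0.0214), as did Bspry, which is next to Alad on the other side (0.159 ± 0.0324 and 0.113 ± 0.0295). Wdr31, 2 places before, passed in neither (0.0228 ± 0.0280, adjusted p = 0.556 in the main fit). Both probes of Pole3, a DNA polymerase subunit on the adjoining place, and 1 of 2 probes of Rgs3 passed in the main fit and none of them in the component-adjusted fit. The 3 probes of Cdc26, a subunit of the anaphase-promoting complex 3 places before, passed in none of the main fits, and 2 of them rose in the component-adjusted fit (0.127 ± 0.0230 and 0.121 ± 0.0198).

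A list of genes of haem synthesis, transport and breakdown was set beside Alad. Of 9 measured, 1 rose and 2 fell in the main fit, where 17.3% and 19.1% of all probes did, with a median slope of -0.0360 beside -0.00528 for all probes. Blvrb, a biliverdin reductase, rose (0.118 ± 0.0292), and Uros, uroporphyrinogen III synthase, and Hmox1, which breaks haem down, fell (-0.0872 ± 0.0193 and -0.449 ± 0.116). The rate-setting enzyme Alas1 did not pass (-0.0312 ± 0.0370), nor did Cpox or Ppox. None of the 9 passed in the component-adjusted fit, where 2.33% of all probes did in either direction. In either fit 0 of 5 red cell markers passed, the erythroid enzyme Alas2 and the haemoglobins Hbb-b1 and Hbb-b2 among them (Alas2 adjusted p = 0.169 in the main fit). Other markers did vary with Alad. Of 4 measured lung markers, Sftpc (0.164 ± 0.0554), Sftpb (0.191 ± 0.0733) and Scgb1a1 (0.180 ± 0.0488) rose in the main fit and 0 passed in the component-adjusted fit. Of 7 measured markers of microglia, Csf1r (0.0889 ± 0.0366), Tmem119 (0.135 ± 0.0409) and C1qa (0.247 ± 0.0532) rose and C1qc fell (-0.270 ± 0.0643) in the main fit. With component adjustment C1qc (-0.413 ± 0.0642) and C1qb (-0.207 ± 0.0426), whose genes lie on chromosome 4 too, fell and 0 rose. Neurons, with 1 rising and 2 falling of 4, and retina and pineal gland, with 2 rising of 4, also had members past the threshold in the main fit, while 0 of 5 pituitary markers and 0 of 2 Y-linked genes did. In the component-adjusted fit 1 of the 4 retina and pineal markers rose, and 0 neuron, pituitary or Y-linked markers passed. The part of these tissues in the level of Alad was not tested.

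Paip1, the gene next to Nnt on chromosome 13, had the smallest p of all named probes. Paip1 encodes a partner of the poly(A)-binding protein in translation. One of its probes ran from -0.985 in the lowest animal over a median of 0.0144 to 0.394 in the highest and fell into 3 components of 25%, 50% and 25% with a gain of 381.7 in BIC and a 10.4-fold difference from lower to upper. It rose with Nnt with a slope of 3.95 ± 0.166 in the main fit (limma adjusted p = 1.3e-61) and 4.50 ± 0.141 in the component-adjusted fit. Its Pearson r with Nnt was 0.833 over all animals. Split by the most probable of 3 Nnt components, r was 0.168 in low, 0.338 in middle and 0.303 in high animals. That mixture was not called for Nnt with all 248 arrays, and each part spans a narrower range of Nnt. The other Paip1 probe ran only from -0.225 to 0.277, was not divided and did not pass in the main fit (0.0423 ± 0.0688, adjusted p = 0.753), while it passed in the component-adjusted fit with a much smaller slope of 0.222 ± 0.0416. The probes thus disagree on the size of the change in Paip1.

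Tmem267, a transmembrane protein gene on the following place, fell with Nnt (-1.81 ± 0.150, adjusted p = 6.6e-23). Gzmk, a granzyme of lymphocytes 14 places before, rose (0.386 ± 0.0394), as did F2r, the thrombin receptor gene 64 places before (0.561 ± 0.0621). A probe named ARHGAP23, whose gene ID matched no mouse gene in the table, fell (-1.49 ± 0.107). All 4 passed in the same direction in the component-adjusted fit, where a probe named NFKBIA, also unmatched, stood in place of F2r among the 5 of smallest p (-0.898 ± 0.0769). Of the other genes near Nnt, Emb, a cell adhesion gene 2 places before, rose in both fits (0.197 ± 0.0458 and 0.111 ± 0.0241). Fgf10, the adjoining gene on that side, and Isl1 passed in neither (Fgf10 adjusted p = 0.540 and Isl1 adjusted p = 0.262 in the main fit), and the chemokine Ccl28 fell in the main fit only (-0.206 ± 0.0444).

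**Figure D3:**
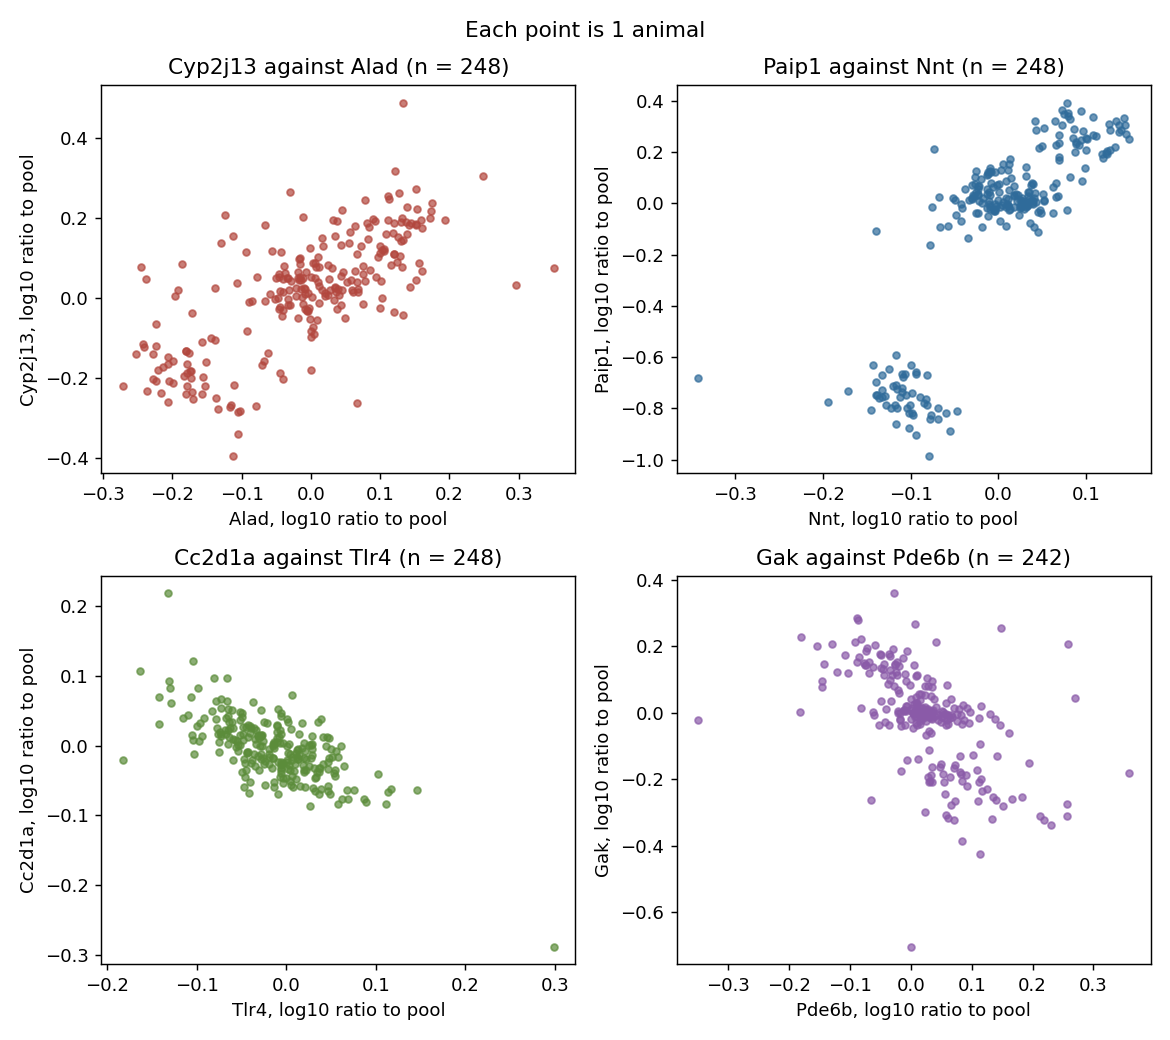
Log10 ratios to the pool of a named gene (y axis) against the member (x axis), 1 point per animal, for Cyp2j13 and Alad, 1 Paip1 probe and Nnt, Cc2d1a and Tlr4 (n = 248 each), and Gak and Pde6b (n = 242). Paip1 shows a separate low cluster down to -0.985 at Nnt values under the pool, and 1 animal at the far right of the Tlr4 panel is number 213 (0.299).

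A list of genes of mitochondrial NADPH and peroxide removal was set beside Nnt. Of 13 measured, 2 rose and 1 fell in the main fit, beside 7.27% and 5.77% of all probes, with a median slope of 0.0560 against 0.000515 for all probes. Prdx3, the mitochondrial peroxiredoxin, rose (0.162 ± 0.0473), as did glutamate dehydrogenase Glud1 on both of its probes (0.337 ± 0.0836 and 0.0861 ± 0.0278), and thioredoxin reductase Txnrd2 fell (-0.102 ± 0.0345). The superoxide dismutase Sod2 had a slope of -0.0176 ± 0.0282 and glutathione reductase Gsr one of 0.226 ± 0.131, neither past the threshold. Component adjustment left 0 of 13 past the threshold, beside 0.737% of all probes in either direction. Both measured Y-linked genes fell with Nnt in the main fit, Eif2s3y at -2.52 ± 0.758 and Kdm5d at -1.96 ± 0.629, and Eif2s3y also in the component-adjusted fit (-2.87 ± 0.733). Of 5 measured pituitary hormone and factor genes, Prl (1.84 ± 0.607) and Pitx1 (0.742 ± 0.261) rose with Nnt in the main fit, with a median slope of 1.32 for the list. In the component-adjusted fit 0 of them passed, with a median slope of 1.18. The part of sex, which is not given for each animal, and of pituitary tissue in the results on Nnt was not tested.

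Tlr4 varied with transcripts on many chromosomes. In the main fit 0 of its 20 leading placed probes lay on chromosome 4. The 5 genes of smallest p included Cc2d1a on chromosome 8, a regulator of transcription and signalling (-0.564 ± 0.0372), and Npdc1 on chromosome 2 (-0.603 ± 0.0401). Ccdc106 on chromosome 7 (-0.406 ± 0.0278) and the Notch pathway gene Dtx1 on chromosome 5 (-0.920 ± 0.0636) were also among them. The other was a probe named ESCO1 (1.35 ± 0.0896), whose gene ID matched no mouse gene in the reference table. None of the 5 passed in the component-adjusted fit, where Cc2d1a had a slope of -0.107 ± 0.0392 (adjusted p = 0.0540). With animal 144 included, Ccdc106 rose with Tlr4 (0.543). In the component-adjusted fit the leading genes were Azin1 on chromosome 15, an inhibitor of the ornithine decarboxylase antizyme (0.318 ± 0.0398), the splicing factor Celf2 on chromosome 2 (0.461 ± 0.0622), Mpv17l2 on chromosome 8 (-0.384 ± 0.0532), Tmem9 on chromosome 1 (-0.347 ± 0.0485) and Rnf141 on chromosome 7 (0.334 ± 0.0470).

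Of the genes nearest to Tlr4, Brinp1, an inhibitor of the cell cycle in neurons on the adjoining place, fell in both fits (-0.401 ± 0.0576 and -0.172 ± 0.0535). Astn2, on the other side, and Pappa beyond it passed in the main fit only (-0.259 ± 0.0723 and 0.478 ± 0.113). The 3 probes of Gm11221 disagreed, 2 rising and 1 falling in the main fit, and 1 of the 2 that rose there fell in the component-adjusted fit (-0.150 ± 0.0444). Tnc and Cdk5rap2, each 3 places away, passed in neither.

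Partners of Tlr4 were called in both directions, as were probes over the whole array. Of 17 measured genes of endotoxin receptor signalling, 6 rose and 7 fell in the main fit, where 27.9% and 31.7% of all probes did, with a median slope of -0.0429 beside -0.0112 for all probes. The related receptor Tlr2 (0.325 ± 0.0671), the co-receptor Ly96 (0.308 ± 0.108), the inhibitor Nfkbia (0.286 ± 0.0914) and the cytokines Il6 (0.724 ± 0.0968), Il1b (0.284 ± 0.0522) and Ccl2 (0.377 ± 0.110) rose. The endotoxin binding proteins Cd14 (-0.197 ± 0.0630) and Lbp (-0.156 ± 0.0556), the adaptors Myd88 (-0.215 ± 0.0454) and Tirap (-0.233 ± 0.0897), the kinase Irak1 (-0.350 ± 0.0714), its relative Irak2 (-0.311 ± 0.0804) and the NF-kappaB subunit Rela (-0.535 ± 0.0532) fell. Tnf (-0.0954 ± 0.0639), Traf6 and Cd180 did not pass.

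In the component-adjusted fit 3 of the 17 rose and 0 fell, beside 5.72% and 6.4% of all probes: Tlr2 (0.336 ± 0.0771), Nfkbia (0.516 ± 0.142) and Ly86, a partner of Cd180 (0.252 ± 0.0837). Markers of microglia turned round between the fits. Of 7 measured, 4 fell in the main fit, namely the receptors Csf1r (-0.516 ± 0.0706) and Trem2 (-0.3004 ± 0.0993), Tmem119 (-0.452 ± 0.0830) and the complement gene C1qa (-0.552 ± 0.111). In the component-adjusted fit Trem2 (0.372 ± 0.132), Tmem119 (0.310 ± 0.0714) and C1qa (0.497 ± 0.116) rose, and Csf1r did not pass. The median slope of the list was -0.3004 in the main fit and 0.310 in the component-adjusted fit. Of 4 measured markers of neurons, Snap25 (0.405 ± 0.0617), Nefm (0.684 ± 0.122) and Syt1 (0.424 ± 0.159) rose and Tubb3 fell (-0.242 ± 0.0844) in the main fit, and 0 passed in the component-adjusted fit. Of 4 lung markers 2 fell, and of 5 red cell markers 2 rose, in the main fit only. Both Y-linked genes fell with Tlr4 in both fits, Eif2s3y at -4.28 ± 1.04 and -5.25 ± 1.49 and Kdm5d at -3.25 ± 0.866 and -4.57 ± 1.27. The part of these cell types and of sex in the level of Tlr4 was not tested.

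Pde6b followed genes on both sides of it on chromosome 5, although its own values formed no groups. Of the 20 leading placed probes, 13 lay on chromosome 5 in the main fit and 19 in the component-adjusted fit. Gak, a kinase that uncoats clathrin vesicles 2 places beyond, fell with a slope of -0.998 ± 0.0970 (limma adjusted p = 4.1e-17, n = 242), and Dgkq, a diacylglycerol kinase on the next place, fell at -0.813 ± 0.0858. Gbp8, a guanylate-binding protein gene 12 places before, fell at -1.33 ± 0.121. Hsd17b13, a hydroxysteroid dehydrogenase gene of lipid droplets 20 places before, rose at 0.937 ± 0.0965, and the zinc finger gene Zfp33b, 14 places before, at 0.465 ± 0.0502. The component-adjusted fit called all 5 in the same direction and with slopes farther from 0, among them Gak at -1.22 ± 0.0978. It also placed Brdt, a bromodomain gene of the testis 5 places before (0.513 ± 0.0428), and a probe named Coq2 (0.508 ± 0.0429) among the 5 of smallest p. The gene ID of the Coq2 probe matched no mouse gene in the reference table, so the probe was not placed. Mtf2, on the adjoining place, rose in both fits (0.355 ± 0.0756 and 0.526 ± 0.0585). Cplx1, the adjoining gene on the other side, passed in the main fit only (-0.140 ± 0.0506), as did 1 of 2 probes of Evi5, and Gfi1 passed in neither.

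Of 18 measured genes of phototransduction, 7 rose and 1 fell with Pde6b in the main fit, where 18.2% and 15.4% of all probes did, with a median slope of 0.0416 beside 0.00203 for all probes. Arrestin (Sag, 0.238 ± 0.0391), recoverin (Rcvrn, 0.228 ± 0.0524), the transcription factor Crx (0.253 ± 0.0649), the disc protein Rom1 (0.280 ± 0.0815) and the phosphodiesterase subunits Pde6a (0.123 ± 0.0443) and Pde6h (0.198 ± 0.0421) rose, as did 1 of 2 probes of the cone subunit Pde6c (0.218 ± 0.0647). The rod transducin Gnat1 fell (-0.218 ± 0.0579). The rod transcription factor Nrl (0.00267 ± 0.0219), the kinase Grk1 and the disc protein Prph2 did not pass. In the component-adjusted fit 0 of the 18 passed, beside 1.32% of all probes in either direction. Of the 4 measured markers of retina and pineal gland, Sag and Crx, which also stand in the first list, rose in the main fit, while Aanat and Tph1 did not pass in either. Both Y-linked genes rose with Pde6b in the main fit (Eif2s3y 2.21 ± 0.733 and Kdm5d 1.69 ± 0.608) and in the component-adjusted fit neither passed (Eif2s3y adjusted p = 0.198).

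Calls near and far on the chromosome were counted for each member. Of genes within 100 places, the component-adjusted fit called 53 of 200 for Alad (26.5%), 24 of 106 for Nnt (22.6%), 39 of 200 for Pde6b (19.5%) and 24 of 200 for Tlr4 (12%). Of genes farther away on the same chromosome it called 73 of 416 for Alad (17.5%), 11 of 302 for Nnt (3.64%), 30 of 445 for Pde6b (6.74%) and 47 of 416 for Tlr4 (11.3%). Nnt lies near the end of chromosome 13, with 402 measured genes before it and 6 after. Alad and Tlr4 lie on the same chromosome, with 158 and 173 measured genes before them.

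**Figure D4:**
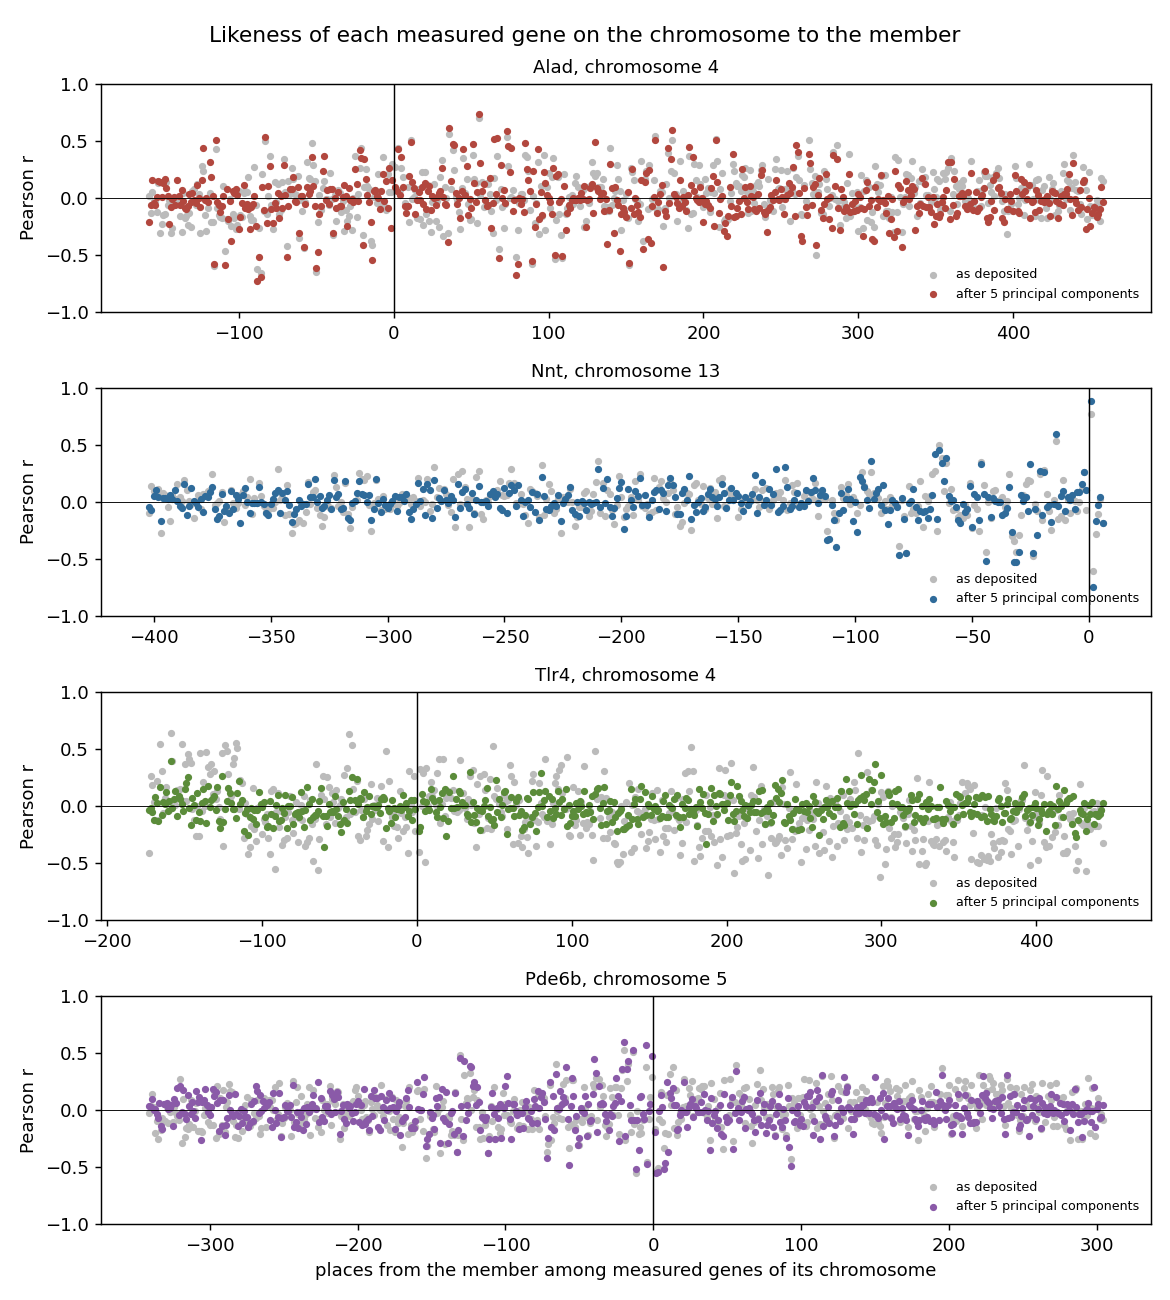
Pearson r over animals of each measured gene with the member (y axis) against its place relative to the member among the measured genes of the chromosome (x axis; the vertical line is the member), as deposited (grey) and after 5 principal components of probes off the chromosome were removed (coloured). After that step Paip1 beside Nnt reached 0.884 and Brdt, 5 places before Pde6b, 0.573, while the highest absolute value among the 20 genes flanking Tlr4 was 0.222.

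As a measure of likeness, the highest absolute Pearson r among the 10 measured genes on each side was 0.438 for Alad (Zfp618), 0.773 for Nnt (Paip1, the mean of its 2 probes, with 16 flanking genes), 0.487 for Tlr4 (Tle1) and 0.534 for Pde6b (Gak). Over 10313 autosomal genes the median of the same measure was 0.513, and the members lay at percentiles 32.5, 95.1, 43.8 and 55.1 of it. After 5 principal components were removed, the values were 0.429 for Alad, 0.884 for Nnt, 0.222 for Tlr4 (Brinp1) and 0.573 for Pde6b (Brdt), at percentiles 64.5, 99.6, 10.8 and 88.0. On those residuals the mean r squared at 1 to 5 places was 0.147 for Nnt, 0.143 for Pde6b, 0.0514 for Alad and 0.0120 for Tlr4, beside 0.00747, 0.00992, 0.0105 and 0.0132 on the other autosomes. For Alad it was highest, 0.0758, at 51 to 100 places. Genes on 1 array share that array, so these values are a description.

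Between members, 4 of 6 pairs passed in the main test. All 6 pairs were compared, with 100000 permutations of animals, two-sided, and adjustment over the pairs. Tlr4 fell as Pde6b rose (r = -0.221, p = 0.00072, adjusted p = 0.00432, rho = -0.130, permutation p = 0.0446, n = 242), and r was -0.121 without the 2 animals farthest from the median of Tlr4. Alad and Nnt gave r = -0.178 (p = 0.00485, adjusted p = 0.0106, rho = -0.119, permutation p = 0.0608, n = 248), and -0.128 without the 2 animals farthest in Alad. Alad and Tlr4, both on chromosome 4, gave r = -0.176 (p = 0.00528, adjusted p = 0.0106, rho = -0.167, permutation p = 0.00798), and -0.139 without 2 animals. Alad and Pde6b gave r = 0.150 (p = 0.0201, adjusted p = 0.0301, rho = 0.137, permutation p = 0.0325), and 0.122 without 2. Nnt and Pde6b (r = -0.0936, permutation p = 0.146, adjusted p = 0.176, rho = -0.107, permutation p = 0.0949) and Nnt and Tlr4 (r = 0.0152, permutation p = 0.812, adjusted p = 0.812, rho = 0.00302, permutation p = 0.962) did not pass. After adjustment of the rank test only Alad and Tlr4 passed (adjusted p = 0.0479). Without the 12 arrays of largest spread 0 of the 6 pairs passed, the smallest adjusted p being 0.271, and 0 passed after 5 principal components were removed.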

How the data were processed

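The authors deposited log10 ratios (animal over pool) for every probe of 249 arrays. Per the labels, animal RNA carried Cy3 and the pool Cy5 on every array, with no dye swap; the sources used here give neither scanner, background correction nor normalization. Base and direction rest on the numbers themselves: the upper components of the Y-linked Eif2s3y and Kdm5d lay at 0.284 and 0.302, near the log10 of 2, and the scale ended at exactly -2 and 2. Array medians ran from -0.00627 to 0.0250, so arrays had been centred by an unknown method. Among 30628 pairs of the 248 arrays used, the median correlation was 0.309, the lowest -0.351, and 7 were less than -0.3; all arrays kept their direction because the labels give 1 dye order and animals can lie on opposite sides of their own pool. The number of arrays limits the precision, and no animal has a replicate array. Signal over background is not analysed here.

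Of 23388 probes, 13645 had 1 symbol, 48 several and 9695 none in the platform annotation. The 23053 probes measured on at least 90% of arrays were used, and 0.710% of all values were missing. Current symbols and gene order came from RefSeq genes of GRCm38.p6, used for names and order only; it placed 10708 genes, and 995 probes with 1 symbol were not placed. Title and source name disagreed on the animal in 1 sample, which was numbered by its source name. Animal 144 was left out because the rule that chose the probes leaves it out.

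Mixtures were fitted by expectation maximization with 1 variance. Slopes were fitted with limma 3.58.1 (lmFit, eBayes) in R 4.3.3 with Benjamini-Hochberg adjustment over all 23052 other probes, and all adjusted p-values of slopes are from it. A fit leaves out the animals in which the member was missing (6 for Pde6b). Pairs were tested with 100000 permutations in Python 3.11.15 with numpy 2.4.6. Mixtures were tried on simulated sets of known components, and slopes on probes given a known slope after their animals were shuffled. Such data lack the variation that probes of these arrays share, so they check the code and not the calls made here. Named are the 4 members and the 5 genes of smallest p for each, also for the component-adjusted fit. The 3 nearest measured genes on each side are named too. List members that passed are named in part, while others are only counted or not mentioned. Up to 3 per list that did not pass are named. Flanking genes of highest r, and the other probes of named genes, were added after their values were seen. Alternatives were all 249 arrays, other arrays left out, principal components, animals of lower and of higher number apart, array medians subtracted, normal scores, and probes measured on every array. The members, lists and tests were chosen with earlier results of these data known.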

Additional observations from a re-analysis of the deposited data

Results flagged for a closer look

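The array of animal 144, which enters no comparison, had a Tlr4 log10 ratio of 0.926, above the highest value on the other 248 arrays, 0.299. On the same array Alad stood at 0.119, Nnt at 0.125 and Pde6b at -0.0760, each inside the range of the other animals. This array had the largest SD over probes of all 249, 0.392. It drew attention as a signal in data outside the comparisons, and its part in any difference was not tested.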

How the results depend on the processing

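No paired analysis was possible because all animals form 1 group. In the mixtures, the gain for Alad fell under the threshold in animals of lower number alone (5.13). Nnt passed it without the 12 arrays of largest spread (22.1), without animal 178 (21.7) and after 5 principal components (52.5). Tlr4 passed it with all 249 arrays (165.6), without animal 208 (11.2), without animal 178 (10.3) and in animals of higher number alone (11.4). In each of these settings the upper component of Tlr4 held only 0.402% to 0.812% of the weight. The gain for Tlr4 was -4.64 without the 12 arrays and -2.34 after 5 principal components. The number of probes called with Alad, 8393 in the main fit, was 1904 without the 12 arrays, 1572 with 5 principal components, 538 with both and 1504 in animals of higher number. For Nnt, 3006 calls became 303, 396 and 170 in the same order, 233 without animal 178, 5429 in animals of lower number, which include that animal, and 38 in those of higher number. For Tlr4, 13746 calls became 2668 with 5 principal components, 2794 with both and 8715 in animals of lower number, and for Pde6b 7729 became 1600, 1462 and 304, with 3559 in animals of lower and 4208 in those of higher number. The subsets of lower and of higher number hold at most 124 animals each, while the fits without the 12 arrays keep 236, or 232 for Pde6b. The cause of the changes was not tested.

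Among the pairs, Alad and Nnt no longer passed without the 12 arrays (r = -0.104), without animal 178 (-0.131), after 5 principal components (-0.115) or in animals of lower number (-0.148). Alad and Tlr4 did not pass with all 249 arrays (-0.0690), without the 12 arrays (-0.110), after components (-0.0158), or in animals of lower (-0.151) and of higher number (-0.120). Alad and Pde6b did not pass without the 12 arrays (0.0886), without animal 178 (0.127), after components (0.0519), or in animals of lower (0.136) and of higher number (0.164), nor Tlr4 and Pde6b without the 12 arrays (-0.0964), after components (-0.0906) or in animals of lower number (-0.139). The r of Nnt and Tlr4, which passed in no setting, changed sign without the 12 arrays (-0.0489), without animal 178 (-0.0233) and in animals of higher number (-0.104). The highest flanking r moved after components to 0.884 for Nnt and 0.222 for Tlr4. The slope of Ccdc106 on Tlr4 reversed to 0.543 with all 249 arrays. The 5 genes named with Tlr4 in the main fit lost their calls under both settings with components. The cause was not tested for these either.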
